A study of Mus musculus with 8 samples.

Results

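The plexins and neuropilins are the cell surface receptors and co-receptors of the semaphorins, and 10 of their genes (Plxna1, Plxna2, Plxna3, Plxna4, Plxnb1, Plxnb2, Plxnc1, Plxnd1, Nrp1 and Nrp2) were examined among the 55487 genes of the hepatic count tables. Each was found by its symbol. The genes were chosen by family membership around Plxna2, which was itself selected on its genotype difference in these same mice, and the question was whether Plxna2 stood alone among its relatives. The genotype differences of the 10 genes are therefore given as a description, and the counts of genes past a threshold serve only to set the family beside all genes. Plxnb3, the remaining plexin, was at 0.422 ± 0.316 CPM (a count per gene relative to the size of its library) in control and 0.343 ± 0.370 CPM in Mc1r LKO mice (SD, n = 4 each) and was not included.

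Whole-liver RNA was sequenced from 4 control mice, numbered 154, 159, 181 and 193, and from 4 Mc1r LKO mice, numbered 141, 156, 157 and 182. All were males that started a cholesterol-rich Western diet at 8 weeks of age, ate it for 12 weeks and were fasted for 4 hours before collection. Control mice were Mc1r fl/fl, with both Mc1r alleles flanked by loxP sites, and Mc1r LKO mice carried the same floxed alleles together with the Alb-Cre transgene, whose albumin promoter drives Cre recombinase in hepatocytes. A Cre transgene is named for the Mc1r LKO mice but not for the controls, so the deletion and the presence of Cre cannot be told apart, and the other cells of the liver are not a target of this Cre.

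Plexins are transmembrane receptors that bind semaphorins outside the cell and act inside it on small GTPases, which shape the actin cytoskeleton and cell adhesion. Neuropilins have only a short intracellular tail. They bind secreted class 3 semaphorins and vascular endothelial growth factors (VEGFs) and pass the signal on through class A plexins or VEGF receptors. The family is best known from the guidance of axons and blood vessels, and in the liver neuropilins are known from sinusoidal endothelial cells and hepatic stellate cells.

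The proximal promoters of the gene with the largest genotype difference and of the gene with the highest level are shown as examples of the sequence features that the promoters of the family had in common. RefSeq promoters (GRCm38.p6, 250 bases before to 50 bases after a transcript start) were matched for 8 of the 10 genes, in 9 entries. The promoter of Plxna2 lies on the plus strand at chr1:194619579-194619878, and that of Plxnb2 on the minus strand at chr15:89180739-89181038. Both are written 5′ to 3′ on the strand of the gene, and capitals mark GGGCGG, the core of a GC box, or its reverse complement.
Plxna2: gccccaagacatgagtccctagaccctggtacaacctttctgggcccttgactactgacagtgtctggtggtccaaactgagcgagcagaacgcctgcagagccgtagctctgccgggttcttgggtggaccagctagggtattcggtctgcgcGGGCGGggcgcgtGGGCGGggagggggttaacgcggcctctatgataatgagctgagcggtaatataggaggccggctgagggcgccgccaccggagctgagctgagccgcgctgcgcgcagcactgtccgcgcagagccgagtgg
Plxnb2: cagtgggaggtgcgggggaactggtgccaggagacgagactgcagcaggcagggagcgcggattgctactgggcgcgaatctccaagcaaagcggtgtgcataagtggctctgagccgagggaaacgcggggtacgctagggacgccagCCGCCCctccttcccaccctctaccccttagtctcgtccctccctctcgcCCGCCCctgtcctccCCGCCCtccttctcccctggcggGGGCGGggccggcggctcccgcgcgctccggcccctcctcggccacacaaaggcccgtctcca
The Plxna2 promoter held 2 GC boxes with a GC content of 64.7%, and the Plxnb2 promoter held 4 with a GC content of 70.3%. All 9 entries held at least 1 GC box on either strand (Nrp1 1, Plxna2 2, Plxna3 2, Plxnd1 2, Plxnc1 4, Nrp2 5 and Plxnb1 5, with 3 in the other Plxnb2 entry), whereas 35.7% of the 32851 RefSeq promoters of the same length held one. None of the 9 held TATAAA (13.6% of all promoters), CACGTG (7.15%) or TGACGTCA (1.79%), searched on both strands. The 9 entries had a GC content between 61.7% and 74.7%. The share over all promoters was not matched for GC content, so the GC boxes cannot be told apart from GC richness. These are matches of letters and were not tested for binding. Plxna1 and Plxna4 had no entry.

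Between 10773151 and 24763375 read pairs were counted on genes per mouse, and a gene without counts may still hold up to 3 of them, equal to 0.121 to 0.278 CPM depending on the mouse. Mc1r itself had 0 counts in all 8 mice, so the genotypes could not be checked against it. On the first principal component (37.6% of the variance), Mc1r LKO mouse 182 (score 59.3) and control mouse 181 (27.8) stood apart from the other 6 mice (-28.2 to -7.03). The 10 hepatocyte markers summed to 70685 to 89203 CPM in control and 78159 to 105693 CPM in Mc1r LKO mice, highest in mouse 182. The 12 sinusoidal endothelial markers summed to 379 to 482 CPM in control and 304 to 459 CPM in Mc1r LKO mice, lowest in mouse 182. For the 10 markers of Kupffer cells, the resident macrophages of the liver, the sums were 392 to 984 CPM (highest in control mouse 159) and 278 to 604 CPM (lowest in mouse 182). The 12 stellate cell markers summed to 415 to 624 CPM and 414 to 589 CPM, and no marker of these 4 lists was at 0 in any mouse. Markers of cholangiocytes (111 to 368 CPM), neutrophils (4.77 to 12.5 CPM) and lymphocytes (2.01 to 9.19 CPM) were lower over all 8 mice. The 8 markers of Schwann cells and neurons summed to between 1.53 and 5.67 CPM, with Sox10 and Snap25 at 0 in every mouse.

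Of the 4 class A plexins, the main partners of neuropilins in class 3 semaphorin signalling, Plxna2 and Plxna1 were lower in every Mc1r LKO mouse than in every control mouse, and Plxna3 and Plxna4 were not. Plxna2 (ENSMUSG00000026640, GRCm38 chromosome 1, 194618218 to 194816869, plus strand) encodes a receptor for Sema6a and, with neuropilins, for class 3 semaphorins. Its level was 31.7, 24.8, 32.5 and 23.4 CPM in control mice 154, 159, 181 and 193, and 16.5, 19.8, 18.8 and 16.4 CPM in Mc1r LKO mice 141, 156, 157 and 182. The lowest control mouse lay above the highest Mc1r LKO mouse, and the control mice fell into a higher pair and a lower pair. The means were 28.1 ± 4.68 and 17.8 ± 1.69 CPM (SD, n = 4 each), a log2 fold change of -0.66 with an SE of 0.13 (95% interval -0.95 to -0.37), or a level 36.6% lower by the fit. Plxna2 had between 238 and 624 counts per mouse, and of the 13400 genes tested, 385 had a more negative log2 fold change. In whole liver, fewer cells of a type and less RNA per cell cannot be told apart.

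Plxna1 (ENSMUSG00000030084, chromosome 6, 89316314 to 89362620, minus strand) encodes a receptor for class 3 semaphorins with neuropilins and for Sema6d. It was at 12.7, 12.7, 12.5 and 14.0 CPM in control mice and 9.82, 11.6, 11.6 and 9.35 CPM in Mc1r LKO mice, in the order of mice given for Plxna2. The gap between the genotypes was narrow, from 11.6 to 12.5 CPM. The means were 13.0 ± 0.687 and 10.6 ± 1.16 CPM (SD, n = 4 each), with a log2 fold change of -0.30 (SE 0.12, 95% interval -0.56 to -0.03).

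Plxna3 (ENSMUSG00000031398, chromosome X), the class A plexin that pairs with Nrp2 in Sema3f signalling, was barely detected, with 7 to 31 counts per mouse. It was at 1.44, 1.49, 0.365 and 0.652 CPM in control mice and 0.760, 0.455, 1.25 and 0.766 CPM in Mc1r LKO mice, and all Mc1r LKO mice lay within the range of the controls. The log2 fold change was -0.21 with an SE of 0.50. Plxna4 (ENSMUSG00000029765, chromosome 6), a receptor for Sema3a with Nrp1, had 16 to 80 counts per mouse and was at 3.51, 1.49, 1.56 and 3.26 CPM in control mice and 2.90, 1.43, 1.5 and 2.66 CPM in Mc1r LKO mice. Within each genotype there was a higher pair and a lower pair, so that the spread between mice exceeded the difference between the genotypes (log2 fold change -0.24, SE 0.38). The 95% intervals of Plxna3 (-1.33 to 0.90) and Plxna4 (-1.07 to 0.60) were the widest of the 10 genes. Without control mouse 154, the values were 0.06 for Plxna3 and -0.02 for Plxna4, and the lowest were -0.52 for Plxna3 (without Mc1r LKO mouse 157) and -0.41 for Plxna4 (without control mouse 181).

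**Figure D1:**
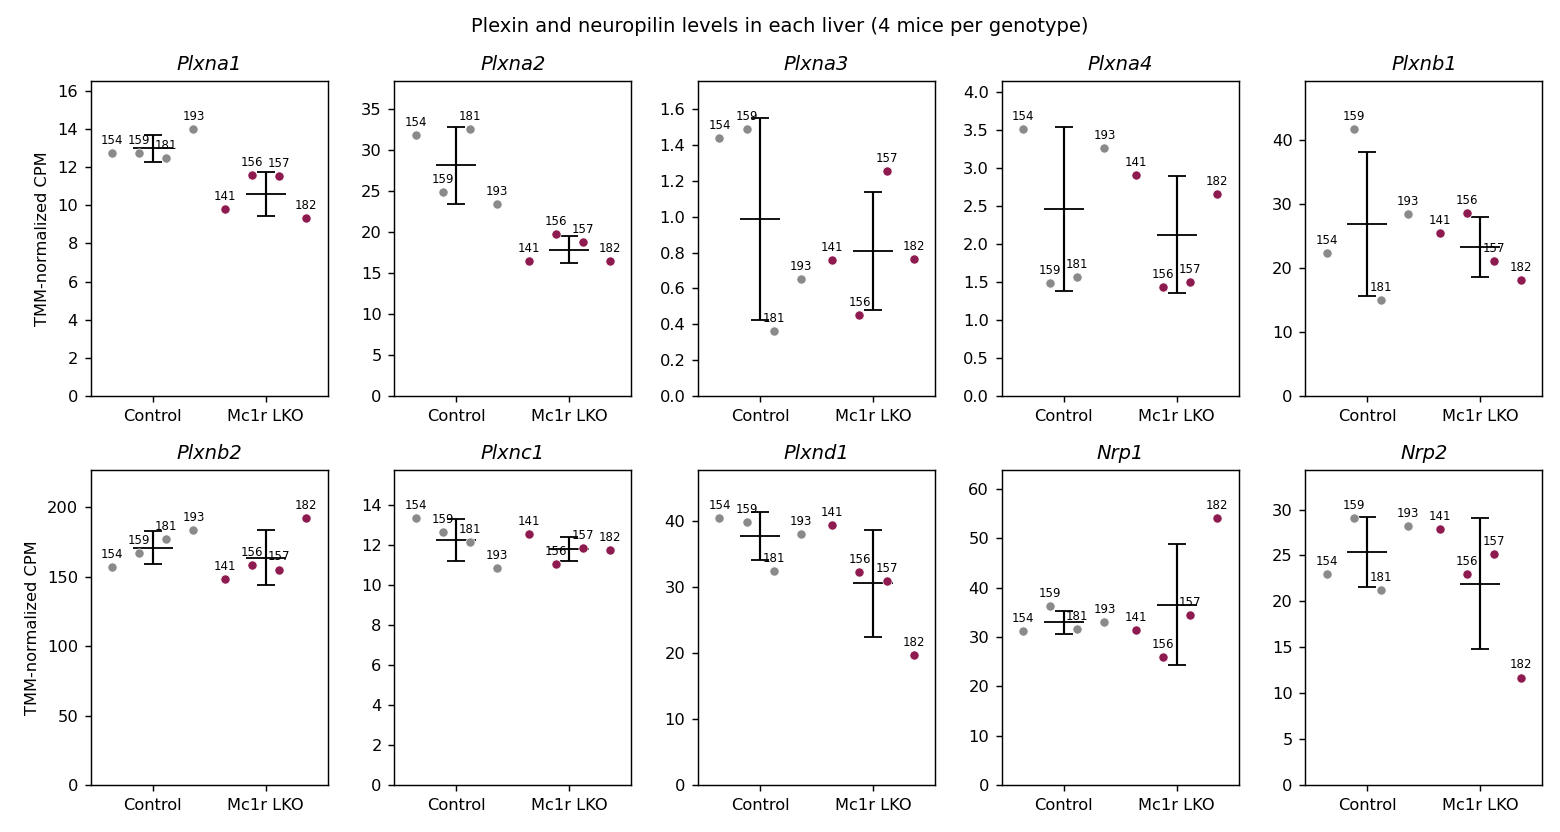
TMM-normalized CPM of each plexin and neuropilin (vertical axes from 0) in each control mouse (grey) and Mc1r LKO mouse (red), labelled by mouse number, with the mean and SD of 4 mice per genotype. Plxna1 and Plxna2 are the panels in which the genotypes do not overlap. Mouse 182 is the lowest for Plxnd1, Nrp2, Plxna1 and, narrowly, Plxna2, and the highest for Nrp1 and Plxnb2.

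Class B plexins are receptors of class 4 semaphorins. Plxnb2 (ENSMUSG00000036606, chromosome 15), which binds Sema4c among others, was the most abundant member, at 157, 167, 177 and 183 CPM in control mice and 148, 159, 155 and 192 CPM in Mc1r LKO mice. Mc1r LKO mice 141 and 157 lay just below every control mouse, and mouse 182 lay above all of them. With 1794 to 4500 counts per mouse, its log2 fold change was -0.06 (SE 0.10, 95% interval -0.29 to 0.17). Plxnb1 (ENSMUSG00000053646, chromosome 9), the receptor of Sema4d, was at 22.4, 41.7, 15.1 and 28.4 CPM in control mice and 25.4, 28.7, 21.2 and 18.1 CPM in Mc1r LKO mice. Control mice 181 and 159 bracketed all other mice, and the log2 fold change was -0.20 (SE 0.27). That fold change became 0.09 when control mouse 159 was left out.

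Plxnc1 (ENSMUSG00000074785, chromosome 10), the receptor of Sema7a, was the steadiest of the 10 genes, at 13.3, 12.6, 12.1 and 10.8 CPM in control mice and 12.5, 11.0, 11.8 and 11.8 CPM in Mc1r LKO mice. All Mc1r LKO mice lay within the range of the controls (log2 fold change -0.05, SE 0.11, 95% interval -0.30 to 0.19). Plxnd1 (ENSMUSG00000030123, chromosome 6), a receptor of Sema3e that patterns blood vessels, was at 40.5, 39.9, 32.5 and 38.1 CPM in control mice and 39.4, 32.2, 30.9 and 19.7 CPM in Mc1r LKO mice. Mouse 182 was far below the rest, and mouse 141 lay among the controls. Its log2 fold change was -0.31 (SE 0.18, 95% interval -0.71 to 0.09), and it was -0.14 without mouse 182 and -0.45 without mouse 141.

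The neuropilins went in opposite directions by their means, and neither direction held without mouse 182. Nrp1 (ENSMUSG00000025810, chromosome 8), which binds Sema3a and VEGF-A, was at 31.2, 36.4, 31.6 and 32.9 CPM in control mice and 31.5, 25.9, 34.5 and 54.2 CPM in Mc1r LKO mice. Mouse 182 was above and mouse 156 below every control mouse. The log2 fold change of 0.15 (SE 0.19) became -0.10 without mouse 182. Nrp2 (ENSMUSG00000025969, chromosome 1), which binds Sema3f and VEGF-C, was at 23.0, 29.1, 21.3 and 28.2 CPM in control mice and 27.9, 23.0, 25.1 and 11.7 CPM in Mc1r LKO mice. The 3 Mc1r LKO mice other than 182 lay within the control range. The log2 fold change of -0.21 (SE 0.23) was 0.0056 without that mouse. Thus mouse 182 was the highest of the 8 mice for Nrp1 and the lowest for Nrp2 and Plxnd1. It was also the highest for Plxnb2 and the lowest for Plxna1 and, narrowly, Plxna2.

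**Figure D2:**
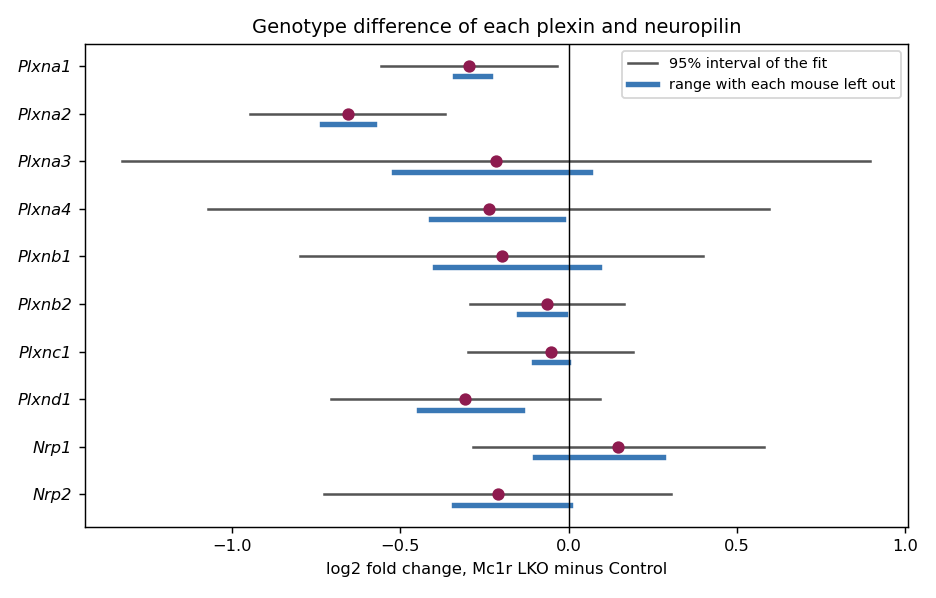
Log2 fold change of Mc1r LKO against control for each gene (points), with the 95% interval of the edgeR fit (thin lines) and the range over 8 fits that each leave out 1 mouse (thick lines). Plxna2 lies at -0.66 and the other 9 genes between -0.31 and 0.15; the thick lines of Plxna3, Plxnb1, Nrp1 and Nrp2 cross 0.

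Across the family, all 10 genes passed the filter on low counts, 9 of the 10 had a log2 fold change below 0 (52.1% of the 13400 genes tested did), and the median was -0.21 against -0.01 for all genes. With 1 mouse left out, the median went from -0.34 (without control mouse 181) to -0.10 (without control mouse 159), and the number below 0 was 7 without control mouse 159, 8 without control mouse 154 and 8 with limma-voom. Plxna1 and Plxna2 were past the unadjusted threshold (p under 0.05 in edgeR's quasi-likelihood test and a log2 fold change of 0.25 or more in size), which 5.31% of all genes passed, 2.66% as lower and 2.64% as higher in Mc1r LKO mice. The same 2 genes were the ones whose genotypes did not overlap, as in 4.16% of all genes (1.54% with every Mc1r LKO mouse lower and 2.63% with every one higher). Since the family was picked for this contrast, nothing is read from these counts. At an adjusted p under 0.05, edgeR called 0 of the 13400 genes (0%) and DESeq2 called 17, Plxna2 among them, while 901 genes (6.72%) were under 0.05 in edgeR before adjustment. With 1 mouse left out, the log2 fold change of Plxna2 was between -0.73 and -0.58, which describes the values the gene was selected on and is no support for them. Plxna1 was not past the threshold without control mouse 193, without Mc1r LKO mouse 141, without Mc1r LKO mouse 182 or without the filter on low counts. Without mouse 141, Plxnd1 was past the threshold and its genotypes did not overlap.

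Plxna2 was next set against each relative within the same mouse, which removes the scaling of the library. The mean log2 ratio of Plxna2 to each of the other 9 genes was lower in Mc1r LKO than in control mice, by between -0.73 (to Nrp1) and -0.30 (to Plxnd1). That direction follows from the choice of Plxna2, which had the most negative log2 fold change of the family. The ratios are therefore a description and no support for its lower level. The genotypes did not overlap for the ratio to Plxnb2 (-2.96 to -2.30 in control and -3.54 to -3.00 in Mc1r LKO mice) and to Plxnc1 (0.97 to 1.41 and 0.39 to 0.83). These are the 2 relatives with the smallest log2 fold changes in size. The genotypes overlapped for the other 7. Plxna2 itself did not overlap between the genotypes, so these counts are no support either. The share of all genes with such a ratio was not computed. The log2 ratio of Plxna2 to Plxna1 was 1.31, 0.96, 1.38 and 0.74 in control mice and 0.74, 0.77, 0.70 and 0.80 in Mc1r LKO mice. It was nearly constant in Mc1r LKO mice and had a wide range in controls, where mouse 193 lay among the Mc1r LKO mice.

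**Figure D3:**
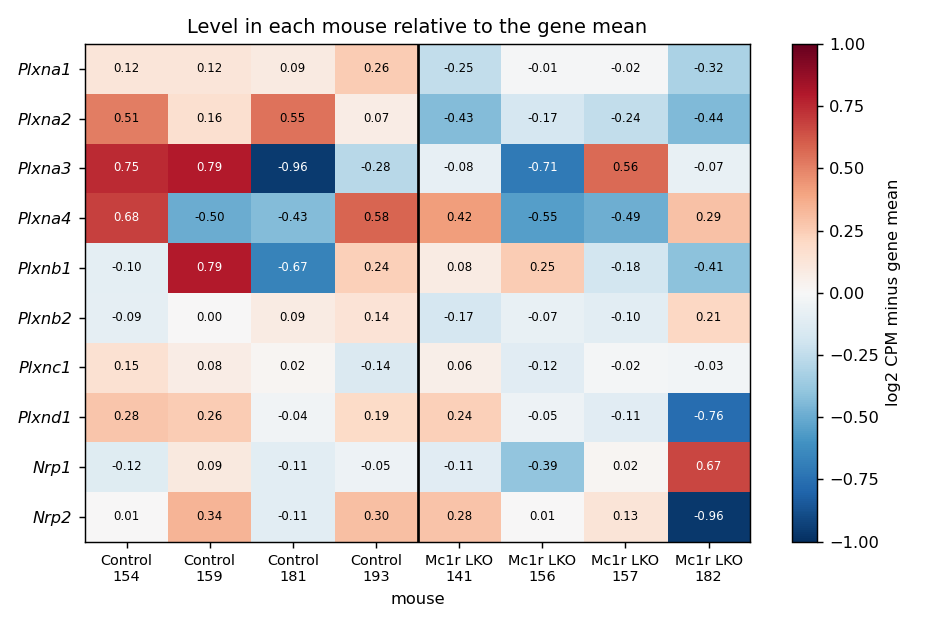
Log2 CPM of each gene in each mouse minus the mean of that gene over the 8 mice (colour and printed value), with control mice to the left and Mc1r LKO mice to the right of the line. Plxna2 is above its mean in all control mice (0.07 to 0.55) and below it in all Mc1r LKO mice (-0.44 to -0.17). Plxnd1 (-0.76), Nrp2 (-0.96), Plxna1 (-0.32) and, narrowly, Plxna2 (-0.44) are lowest in mouse 182.

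The pattern of Plxna2 over the 8 mice was compared with that of the other 13399 genes by the root mean square difference of log2 CPM after centring each gene on its mean. Plxna1 was the nearest relative, at 0.25, yet 151 genes were nearer. The 5 nearest genes were 5031425E22Rik (0.0837), Gm44744 (0.101), Chn1os3 (0.106), Tiam2 (0.128) and 9930021J03Rik (0.176). Of these, Gm44744 and Chn1os3 were low, at means of 1.44 and 2.08 CPM over the 8 mice, so their patterns are less precise. Tiam2, which encodes an exchange factor for the GTPase Rac, was at 9.67 ± 1.25 CPM in control and 6.28 ± 0.926 CPM in Mc1r LKO mice (SD, n = 4 each), and 5031425E22Rik was at 9.67 ± 1.19 and 6.44 ± 0.649 CPM. All 5 were lower in every Mc1r LKO mouse than in every control mouse, which follows from their choice by likeness to Plxna2. Among the other relatives, Plxnc1 (0.34), Plxnd1 (0.35) and Plxnb2 (0.37) were closer to Plxna2 than Plxna3 (0.71) and Plxna4 (0.63), the pair with the fewest counts. The measure also counts the size of the changes, so a gene that hardly varies can lie close without a shared pattern. The SD of log2 CPM within genotypes was 0.10 for Plxnc1, 0.14 for Plxnb2 and 0.31 for Plxnd1. It was 0.70 for Plxna3 and 0.58 for Plxna4.

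The levels of the 10 genes per length were ordered over the 8 mice, as CPM per kb of exon in the annotation of the tables. Plxnb2 was the highest at 21.7 ± 2.01 CPM per kb (SD, n = 8), followed by Plxnd1 (4.68), Nrp1 (3.55), Plxnb1 (2.62), Nrp2 (2.0), Plxnc1 (1.44), Plxna2 (1.34), Plxna1 (1.30), Plxna4 (0.162) and Plxna3 (0.114). Neighbours in this order were compared within each mouse by a two-sided exact permutation test of the mean log2 ratio under flipped signs, which cannot give a p below 0.0078 with 8 mice, adjusted over the 9 pairs. The order was taken from these same mice, so the test is no independent support for it. Plxnb2 exceeded Plxnd1 by 4.72-fold in 8 of 8 mice, and Plxna1 exceeded Plxna4 by 8.50-fold in 8 of 8 mice (exact permutation test, adjusted p = 0.035 for each). The other 7 pairs of neighbours did not pass, with ratios between 1.00 and 1.49 and adjusted p between 0.070 and 0.961 in the same exact permutation test. By the mean per kb of exon, the places of Plxna2, Plxna1 and Plxnc1 differed by genotype. For Plxna2 this restates the contrast it was selected on and is no support for it. In control mice Plxna2 was at 1.64, Plxnc1 at 1.47 and Plxna1 at 1.43 CPM per kb, and in Mc1r LKO mice Plxnc1 was at 1.41, Plxna1 at 1.17 and Plxna2 at 1.04. The pooled ratio of Plxna2 to Plxna1 of 1.00 thus averaged over opposite orders, and the 3 of 8 mice with Plxna2 higher were all controls. When the length of the longest coding transcript was used instead, a choice made after the data were seen, 4 pairs passed and Nrp1 moved up to the second place, since its exons in the annotation span 9785 bases and that transcript 3597. With that length, Plxna2 (2.08) and Plxna1 (2.03 CPM per kb) stood above Plxnc1 (1.65) over the 8 mice. The order by genotype was not taken with it.

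**Figure D4:**
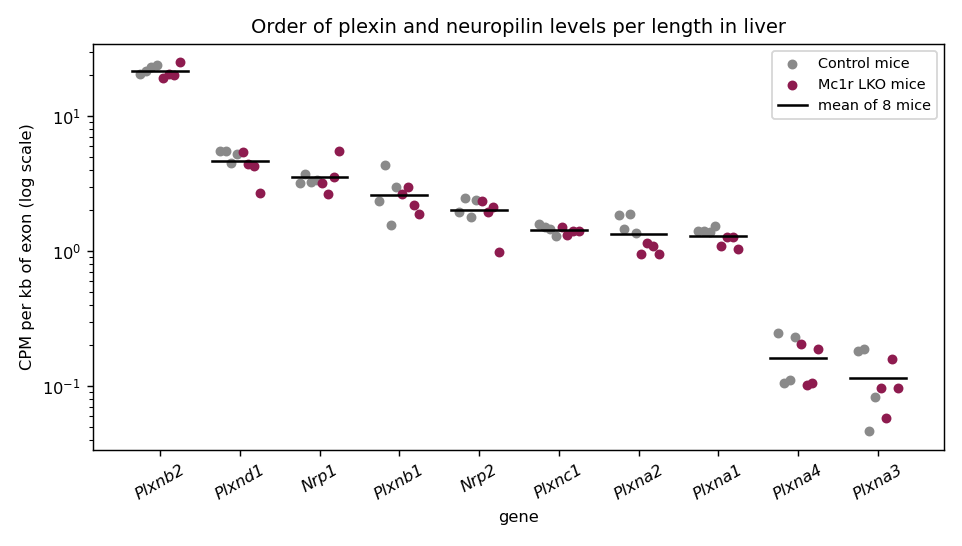
CPM per kb of exon (log scale) of each gene in the 8 mice, ordered by the mean (black line), with control mice in grey and Mc1r LKO mice in red. Plxnb2 lies above all others at 21.7 CPM per kb, 7 genes lie between 1.30 and 4.68, and Plxna4 and Plxna3 lie at 0.162 and 0.114.

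To see with which cells of the liver the genes moved between mice, each gene's log2 CPM was compared with the mean log2 CPM of the sinusoidal endothelial, stellate and Kupffer cell markers, which makes 30 relations over 8 mice. Of these, 3 passed an adjusted p of 0.05 by Pearson's r in a two-sided exact permutation test, and 0 by Spearman's rank correlation, for which the smallest adjusted p was 0.154. No other genes were compared with the markers, so the share of all genes that would pass is not known. Mice 182 and 181, lowest in the endothelial markers, also stood apart on the first principal component. Plxnd1 went with the endothelial markers (r = 0.93, exact permutation p = 0.0040, adjusted p = 0.040; Spearman's coefficient = 0.86, p = 0.011, adjusted p = 0.154), and r was 0.85 without mice 182 and 181, the 2 farthest from the median of the markers. Plxnb1 went with the Kupffer cell markers (r = 0.90, exact permutation p = 0.0039, adjusted p = 0.040; Spearman's coefficient = 0.88, p = 0.0072, adjusted p = 0.154), and r was 0.79 without mice 159 and 182. Nrp2 also went with the endothelial markers (r = 0.94, exact permutation p = 0.0034, adjusted p = 0.040; Spearman's coefficient = 0.83, p = 0.015, adjusted p = 0.154), but r was 0.44 without mice 182 and 181, so that this relation rests on those mice. With 1 mouse left out, the lowest r was 0.68 for Plxnd1 and 0.71 for Nrp2, both without mouse 182. For Plxnb1 it was 0.79, without mouse 159. Taken as deviations from the genotype means, r was 0.97 for Plxnd1, 0.92 for Plxnb1 and 0.94 for Nrp2. The adjusted p stayed under 0.05 for each in a permutation over all 8 mice. Centring ties the values of a genotype together, so that permutation is only approximate here and its p may be too small.

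Among the relations that did not pass, Nrp1 (r = -0.76) and Plxnb2 (r = -0.72) went against the endothelial markers. Without mice 182 and 181, their r was 0.15 and -0.06. Plxnb1 also had an r of 0.69 with the endothelial markers. For Nrp2, r was 0.69 with the Kupffer cell and 0.66 with the stellate markers, and for Plxnd1 0.66 with the stellate markers. The relations thus assign no gene to a single cell type. None of the 3 relations of Plxna2 passed, with r of 0.22 for endothelial, 0.02 for stellate and 0.19 for Kupffer cell markers (exact permutation test, adjusted p between 0.762 and 0.979). With 1 mouse left out, its r with the endothelial markers went from -0.43 (without mouse 182) to 0.49 (without mouse 181). In the marker lists, all 10 Kupffer cell markers had a log2 fold change below 0 in Mc1r LKO mice (1 past the unadjusted threshold, median -0.44), and so did 10 of the 12 endothelial markers (0 past it, median -0.16), beside 52.1% of all genes below 0 and 5.31% past the threshold. All 10 hepatocyte markers (1 past it, median 0.21) and the 5 cholangiocyte markers kept by the filter (0 past it, median 0.36) were above 0. The part of these markers in the lower values of Plxnd1, Nrp2 and Plxnb1 was not tested.

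**Figure D5:**
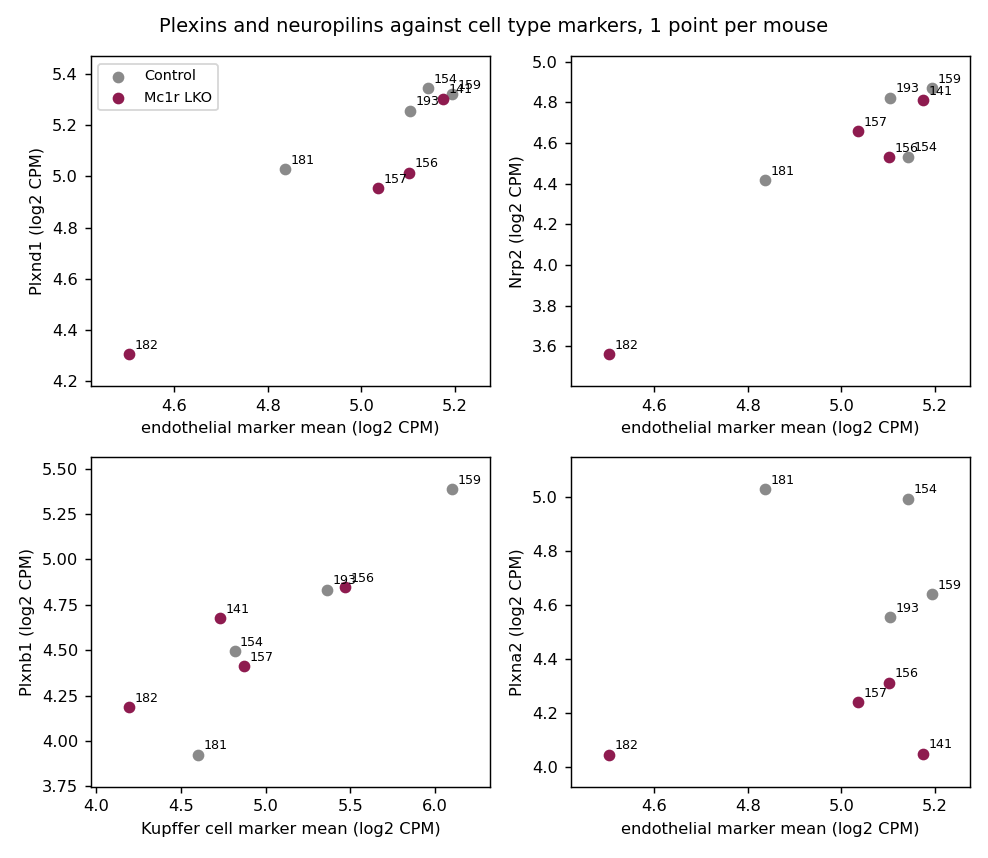
Log2 CPM of Plxnd1, Nrp2 and Plxna2 against the mean log2 CPM of 12 sinusoidal endothelial markers, and of Plxnb1 against that of 10 Kupffer cell markers, with 1 labelled point per mouse (control grey, Mc1r LKO red). Plxnd1, Nrp2 and Plxnb1 follow the markers (r of 0.93, 0.94 and 0.90), with mouse 182 at the low end of each marker axis, and r is 0.22 for Plxna2.

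Among the ligands, 14 of the 20 semaphorin genes listed passed the filter on low counts, and 0 of them were past the unadjusted threshold (5.31% of all genes). Of the 14, 11 had a log2 fold change below 0 (52.1% of all genes), with a median of -0.22. The 6 not kept were Sema3a, Sema3c, Sema3e, Sema3g, Sema4f and Sema7a, so the ligands named above for Plxna4, Plxnd1 and Plxnc1 were too low for the test. Per length, Sema4g, a class 4 transmembrane semaphorin, was the most abundant at 36.1 CPM per kb, followed by Sema4a at 16.3, Sema6b at 1.53, Sema5b at 1.52 and Sema6d at 1.45. Sema4g was at 340 ± 39.7 CPM in control and 286 ± 39.8 CPM in Mc1r LKO mice (SD, n = 4 each, log2 fold change -0.25, SE 0.12), and the genotypes overlapped. It was past the unadjusted threshold without Mc1r LKO mouse 156 (-0.35) or with scaling by library size alone (-0.29). The log2 fold changes of the other 4 were 0.07 for Sema4a, 0.02 for Sema6b (-0.011 with scaling by library size alone), -0.28 for Sema5b (-0.09 without control mouse 193) and -0.18 for Sema6d (from -0.30 without Mc1r LKO mouse 156 to -0.08 without control mouse 159).

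The VEGF ligands, VEGF receptors and other co-receptors of the family gave 13 genes of 17 that passed the filter, 0 past the unadjusted threshold (5.31% of all genes) and 9 below 0 (52.1% of all genes), with a median log2 fold change of -0.06. Chl1, a cell adhesion molecule that binds neuropilins, had 0 counts in every mouse. Kdr, the main signalling receptor of VEGF-A on endothelial cells, was at 31.8 ± 4.18 CPM in control and 29.1 ± 4.32 CPM in Mc1r LKO mice, and Flt1, another VEGF-A receptor, was at 9.72 ± 1.84 and 10.6 ± 0.556 CPM (SD, n = 4 each).

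Inside the cell, 32 of 35 listed genes of plexin signalling passed the filter, and 4 of them were past the unadjusted threshold, all lower in Mc1r LKO mice. Of all genes, 5.31% were past it in either direction and 2.66% as lower. The median of the 32 was -0.06 and 20 were below 0, beside 52.1% of all genes. Mical1, a monooxygenase that oxidizes actin and binds class A plexins, was at 2.38 ± 0.673 CPM in control and 1.31 ± 0.381 CPM in Mc1r LKO mice (log2 fold change -0.87, SE 0.32). Limk1, the kinase that phosphorylates cofilin, was at 9.91 ± 3.15 and 5.85 ± 2.18 CPM (-0.77, SE 0.32), with the lowest value, 2.61 CPM, in mouse 182. The small GTPases Rnd1, which binds the intracellular part of plexins, and Rnd3 were at 9.53 ± 1.28 against 7.53 ± 0.379 CPM (-0.34, SE 0.14) and 33.1 ± 5.52 against 25.5 ± 4.52 CPM (-0.37, SE 0.16). In none of the 4 genes were the genotypes without overlap, and the adjusted p was 0.734 for each in edgeR's quasi-likelihood test. Without control mouse 193 or Mc1r LKO mouse 156, 1 gene of this list was past the unadjusted threshold, and without control mouse 159 or 181 or Mc1r LKO mouse 141 or 157, 2 were.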

How the data were processed

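Liver RNA of 8 mice was sequenced from stranded mRNA libraries. Per the labels and the study's methods, the authors trimmed reads with Trim Galore 0.6.6, aligned them with STAR 2.7.6a and counted read pairs with featureCounts of Subread 2.0.1, by strand and without multi-mapping reads. The file headers name an Ensembl annotation of GRCm38, and the methods write GRCh38. The deposited values are whole-number counts per gene, with no normalization or filter. Reads shared with overlapping genes of the same strand may be lost to the counting.

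The plexins, neuropilins and gene lists were chosen with earlier results of these data known. Genes were filtered with filterByExpr (minimum count 10, minimum total count 15), scaled by TMM and compared by the quasi-likelihood test of edgeR 4.0.16 in R 4.3.3 (glmQLFit, glmQLFTest), with p-values adjusted by Benjamini-Hochberg over the 13400 genes kept, and the script was tested on simulated data. CPM are TMM-normalized and log2 CPM have a prior count of 2. Named from the pathway lists were genes past the unadjusted threshold, the 5 semaphorins highest per length, Flt1 and Kdr. Chl1, the semaphorins not kept and the ligands named as background fall outside that rule. The order of levels was tested after the data were seen. Correlations and sign-flip tests used SciPy 1.17.1. The alternatives were DESeq2 1.42.0, limma-voom (limma 3.58.1), RLE or library size scaling, other filters on low counts and leaving out each mouse. No batch is named in the labels. That the mice are separate animals follows from their numbers. No pair of mice of a genotype agreed within sampling noise (smallest chi-square per degree of freedom 11.0). The limit of 3 counts covers counting error only, and the total counts set the precision of the low genes.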

Additional observations from a re-analysis of the deposited data

Results flagged for a closer look

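Mc1r LKO mouse 182 lay far from the other 3 mice of its genotype in 2 genes of the pathway. Its level of Kdr, a VEGF receptor, was 22.7 CPM, and its level of Limk1, the cofilin kinase, was 2.61 CPM, each the lowest of the 4 mice. In all, 48 groups of 4 mice were checked this way and chance flags about 1 in 20, or 2.4 of 48. None of the 10 plexins and neuropilins was among the 2. Mouse 182 was still at an extreme of its genotype for Plxna1, Plxna2, Plxnb1, Plxnb2, Plxnd1, Nrp1 and Nrp2. The same mouse had the lowest sum of sinusoidal endothelial markers (304 CPM) and the highest sum of hepatocyte markers (105693 CPM), and the part of these in its values was not tested.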

How the results depend on the processing

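The number of genes at an adjusted p under 0.05 was 0 in edgeR, 17 with DESeq2 and 1 with no filter beyond 1 count in any mouse (24087 genes tested), and 0 with the other settings. With no filter, 1 of the 10 plexins and neuropilins was past the unadjusted threshold in place of 2, and with 1 mouse left out 1 to 2 were. Scaling by library size alone moved 1 semaphorin, Sema4g, past it (log2 fold change -0.29), turned Sema6b to -0.011 and gave 25.3% of the genes past the threshold as higher in Mc1r LKO mice against 49.8% after TMM. With each mouse left out in turn, 0 to 1 semaphorins, 0 to 1 VEGF and co-receptor genes (1 without control mouse 193 or Mc1r LKO mouse 182) and 1 to 4 intracellular genes were past the threshold. Sema6b ranged from -0.094 to 0.179, below 0 without control mouse 181 (-0.023), control mouse 193 (-0.094) or Mc1r LKO mouse 141 (-0.078), and Sema4a ranged from -0.0031 (without control mouse 193) to 0.151. The cause of these changes was not tested. The order of levels had 4 in place of 2 neighbours apart with the length of the longest coding transcript. The 3 relations to cell markers passed with the 4 other scalings, prior counts and centrings tried, though the permutation is only approximate for deviations from the genotype means. With at least 10 counts in every mouse, Plxna3 was not tested and 9 members were kept. Plxna3 (7 to 31 counts per mouse) and Plxna4 (16 to 80) had the fewest counts of the 10 genes. No paired analysis was made because no litter or cage is given for the mice.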
